A study of Mus musculus with 46 samples.

Results

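The histone variant H3.3 was followed at 5210 intronic peaks that induced pluripotent stem cells (iPSCs) had in common with embryonic stem cells and that fibroblasts lacked. Members were chosen by their H3.3 peaks alone: an iPSC peak had its midpoint inside a protein-coding gene of GENCODE vM1 (mouse build mm9), in no exon of such a gene and over 1 kb from the start of any annotated transcript, shared at least 1 bp with a peak of ESD3 cells, and shared none with a peak of D0 cells. Of 81542 iPSC peaks on chromosomes 1 to 19, X and Y, 39657 had their midpoint in an intron, 33689 of these were over 1 kb from a start site, 10597 of those met an ESD3 peak, and 5210 of them met no D0 peak. The members were thus 6.39% of the iPSC peaks and 15.5% of the intronic ones. The H3.3 levels in iPSCs, ESD3 and D0 are therefore given only as a description, without a test.

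The study collected ChIP-Seq of the variant H3.3 and of the marks H3K4me3 and H3K36me3 from mouse embryonic fibroblasts (MEFs) on their way to iPSCs or to hematopoietic cells. D0 were MEFs before infection with retroviral pMXs vectors for Oct4, Sox2, Klf4 and c-Myc (OSKM), and D3 were unsorted cells on day 3, shared by both routes. On days 6 and 9 cells were sorted by the fibroblast surface protein Thy-1 and on days 12 and 16 by SSEA-1, a surface antigen of pluripotent cells: D6T-, D9T-, D12S+ and D16S+ formed the successful route, and D6T+, D9T+, D12S- and D16S- the unsuccessful route. iPSCs were fully reprogrammed cells and ESD3 is the mouse embryonic stem cell line D3, both grown without feeder cells in medium with leukemia inhibitory factor. In transdifferentiation, MEF were the fibroblasts before induction, D4 the cells 4 days after induction of hematopoietic factors, and cKit+ and cKit- the fully transdifferentiated cells sorted by the progenitor receptor cKit; per the study's methods these were co-cultured with OP9 stromal cells. H3K4me3 and H3K36me3 were available for D0, D3, D6T-, D9T-, D12S+, D16S+ and iPSCs. Each group had 1 library, so replicate spread could not be measured for any difference, and the 95% Wilson intervals given in square brackets cover counting error only.

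H3.3 is the replication-independent form of histone H3. The Hira complex places it at active genes, promoters and enhancers, and Atrx with Daxx places it at telomeres and repeats, so that introns can carry it both where RNA polymerase elongates and where a regulatory element lies within the gene. H3K36me3 is laid down behind elongating RNA polymerase along the bodies of transcribed genes, while H3K4me3 marks promoters and, more weakly, active elements away from them.

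The 13 H3.3 libraries that the selection did not use held between 25637 (cKit-) and 108179 (D4) peaks, from 18.7 (D16S+) to 91.8 (cKit+) M tags. On the successful route the lists became shorter with time, from 82764 peaks in D6T- to 34062 in D16S+, and D12S- had 87536 peaks against 45922 in D12S+. The share of members that met each H3.3 list was therefore set beside that of all 52710 iPSC peaks without a D0 peak. Those shares in reprogramming were recomputed with the 34062 highest-scoring peaks of each library. For H3K36me3 and H3K4me3 the background is the share of all 81542 iPSC peaks, promoters and peaks with D0 H3.3 included, and the set without a D0 peak is given beside the main values. As a check of the labels, 45 of 47 pluripotency genes carried an H3.3 peak in iPSCs, 38 in ESD3 and 21 in D0, while 46 of 46 fibroblast genes carried one in D0, 16 in iPSCs and 11 in ESD3.

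The reference sequence under members in pluripotency genes is shown first, because these are the elements the gene names lead to. Of 63 members in host genes of a list of 47 pluripotency genes that were considered here, 8 held an octamer (ATGNAAAT, the DNA element of Oct4) or a Sox-Oct core (TTGTNATGC) within the central 300 bp of the peak. The share of other peaks with a match in this window was not computed. In the central 500 bp 11.8% of all members and 10.9% of all iPSC peaks held an octamer, and 1.63 and 1.38% a Sox-Oct core. The 8 windows printed are those with a match. All are intronic, from build mm9, given 5′ to 3′ on the + strand, and the capitals mark motif matches on either strand: the octamer in Sall4, Esrrb, Tet1 and Jarid2, the Sox-Oct core in Rif1 and Tet2, and also AP-1 (TGANTCA) in the middle Jarid2 element and Klf (GGGNGTGG) in Tet2.
Sall4 intron, chr2:168582748-168583047: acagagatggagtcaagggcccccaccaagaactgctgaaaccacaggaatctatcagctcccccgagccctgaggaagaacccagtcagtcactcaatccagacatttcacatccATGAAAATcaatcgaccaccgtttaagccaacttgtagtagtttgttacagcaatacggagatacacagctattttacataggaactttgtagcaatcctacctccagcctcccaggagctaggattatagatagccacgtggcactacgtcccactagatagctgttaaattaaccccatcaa
Rif1 intron, chr2:51946398-51946697: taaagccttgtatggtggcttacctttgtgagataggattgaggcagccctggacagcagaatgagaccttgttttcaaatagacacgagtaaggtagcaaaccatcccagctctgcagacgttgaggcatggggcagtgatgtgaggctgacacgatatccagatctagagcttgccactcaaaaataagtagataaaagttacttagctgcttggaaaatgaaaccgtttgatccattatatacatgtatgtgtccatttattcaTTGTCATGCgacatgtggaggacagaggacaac
Esrrb intron, chr12:87819745-87820044: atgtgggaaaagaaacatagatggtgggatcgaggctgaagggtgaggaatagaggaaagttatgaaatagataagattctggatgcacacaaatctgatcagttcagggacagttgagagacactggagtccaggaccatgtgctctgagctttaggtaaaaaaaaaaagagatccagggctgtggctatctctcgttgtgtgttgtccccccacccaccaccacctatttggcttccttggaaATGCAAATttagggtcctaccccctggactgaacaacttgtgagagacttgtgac
Tet1 intron, chr10:62334837-62335136: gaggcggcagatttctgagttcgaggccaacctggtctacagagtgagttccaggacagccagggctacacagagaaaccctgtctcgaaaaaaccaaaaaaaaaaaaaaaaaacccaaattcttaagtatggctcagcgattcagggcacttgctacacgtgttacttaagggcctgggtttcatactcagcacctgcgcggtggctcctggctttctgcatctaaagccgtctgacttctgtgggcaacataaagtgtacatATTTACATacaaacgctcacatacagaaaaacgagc
Jarid2 intron, chr13:44845463-44845762: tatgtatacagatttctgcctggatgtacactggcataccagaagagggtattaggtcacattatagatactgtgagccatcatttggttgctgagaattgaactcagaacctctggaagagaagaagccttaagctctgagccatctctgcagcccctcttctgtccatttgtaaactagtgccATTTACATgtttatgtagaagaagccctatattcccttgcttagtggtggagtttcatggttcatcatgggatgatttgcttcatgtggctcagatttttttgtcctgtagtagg
Jarid2 intron, chr13:44870749-44871048: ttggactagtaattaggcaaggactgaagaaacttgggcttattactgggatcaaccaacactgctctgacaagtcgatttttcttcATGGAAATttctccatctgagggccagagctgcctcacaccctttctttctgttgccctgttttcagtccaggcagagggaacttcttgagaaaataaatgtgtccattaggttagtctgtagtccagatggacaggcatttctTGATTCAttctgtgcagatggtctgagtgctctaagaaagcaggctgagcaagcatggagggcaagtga
Jarid2 intron, chr13:44872602-44872901: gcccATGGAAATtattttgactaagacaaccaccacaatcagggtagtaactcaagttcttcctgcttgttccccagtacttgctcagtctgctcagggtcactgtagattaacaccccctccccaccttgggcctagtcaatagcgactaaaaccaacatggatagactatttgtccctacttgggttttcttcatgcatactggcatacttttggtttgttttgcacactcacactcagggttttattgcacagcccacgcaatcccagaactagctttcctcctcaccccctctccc
Tet2 intron, chr3:133197195-133197494: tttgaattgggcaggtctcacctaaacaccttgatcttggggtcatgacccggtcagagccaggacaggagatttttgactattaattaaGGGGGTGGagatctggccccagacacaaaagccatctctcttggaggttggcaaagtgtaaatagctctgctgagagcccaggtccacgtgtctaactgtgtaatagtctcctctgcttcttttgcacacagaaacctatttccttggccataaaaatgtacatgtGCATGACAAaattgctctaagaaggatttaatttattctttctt

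The matches are letters in the reference and no measurement of factor binding. Sall4 is a zinc finger factor of the pluripotency network, Rif1 a telomere and replication-timing protein, and Esrrb an orphan nuclear receptor of naive pluripotency. Tet1 and Tet2 are 5-methylcytosine dioxygenases, and Jarid2 is a partner of Polycomb repressive complex 2. The whole iPSC peaks around the printed windows, called elements below, differed in when they met H3.3. The Esrrb element had a peak in D16S+ and in no other library between D3 and iPSCs on either route, the Rif1 element had one in D12S+, D16S+ and D12S-, and the middle Jarid2 element in D12S+ and D16S+ alone. The first Jarid2 element and the Tet2 element had a peak in every library of the successful route from D6T- on, on both routes from day 9 on. The Tet1 element had a peak in D12S+ and D6T+, and the Sall4 element in D9T-, D16S+, D12S- and D16S-. The whole peaks around these windows were 500 bp (Tet2) to 4873 bp (Sall4) long, and an overlap of 1 bp anywhere in them was enough. The Sall4 and Rif1 peaks each span the start of an annotated transcript, 1455 bp from the midpoint. Whether the H3.3 of a library lay on the printed bases or their motifs was not determined.

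Members were 500 to 25804 bp long, with a median of 1155 bp, and their midpoints were a median of 10277 bp from the nearest start site. Their iPSC score, the tag count scaled to 10 M tags, ran from 4.74 to 430 with a median of 14.2, which came to 12.0 per kb of peak, at 3.22-fold over input. They were longer than intronic iPSC peaks with neither a D0 nor an ESD3 peak (15369 peaks, median 625 bp) and shorter than intronic peaks kept in D0, iPSCs and ESD3 (5387 peaks, median 1950 bp), so shares are also given within classes of length. Shared peaks outside protein-coding genes that likewise lacked a D0 peak (7899 peaks, median 1302 bp) made the third comparison. Because only the midpoint was placed, 1029 members (19.8%) reached into an exon of a protein-coding gene and 76 (1.46%) across a start site. At the edges of the rule, 126 members up to 200 bp beyond the 1 kb limit from a start had a median score of 14.8 and 63.5% met iPSC H3K4me3, and 129 peaks left out up to 200 bp within it had 13.5 and 60.5%. The 262 members that met ESD3 over at most 100 bp had a median score of 7.65, and 116 peaks left out for a D0 overlap of at most 100 bp had 9.41.

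H3.3 appeared at part of the members within the early days of reprogramming and on both routes. A peak was present at 18.2% [17.1, 19.2] of members in D3, where 11.2% of all iPSC peaks without a D0 peak had one. Along the successful route D6T- had a peak at 35.6% (background 21.7%), D9T- at 34.0% (20.3%), D12S+ at 35.5% (19.4%) and D16S+ at 31.6% (19.2%). The background set includes the members, and in these bulk samples a peak in part of the cells and a weaker peak in all of them cannot be told apart. From day 6 on, about as many members carried H3.3 in each fraction of the successful route although the lists shortened. The unsuccessful fractions gave 12.0% in D6T+ (background 7.54%), 22.1% in D9T+ (12.3%), 42.9% in D12S- (26.3%) and 29.0% in D16S- (16.1%). In each of these 9 lists the members' share was above that of the background set, and the peaks that the members had there were a median of 636 bp (D6T+) to 1660 bp (D12S-) long.

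With the 34062 strongest peaks of each library, the 5 libraries from D3 to D16S+ along the successful route read 9.17, 22.3, 24.0, 29.8 and 31.6%, so that each later library held more members than the one before. The unsuccessful route read 6.16%, 14.6%, 26.3% and 18.4% on days 6, 9, 12 and 16, highest in D12S-. The background set under the same cut also rose at each step of the successful route, with 5.23, 12.5, 13.1, 15.6 and 19.2%. In the unsuccessful fractions it gave 3.89, 7.24, 14.7 and 9.55%, likewise highest in D12S-. Members with a peak were longer in iPSCs than members without: a median of 1970 against 877 bp for D16S+, and 1400 against 1040 bp for D6T-. The part of peak length in these shares was not tested.

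**Figure D1:**
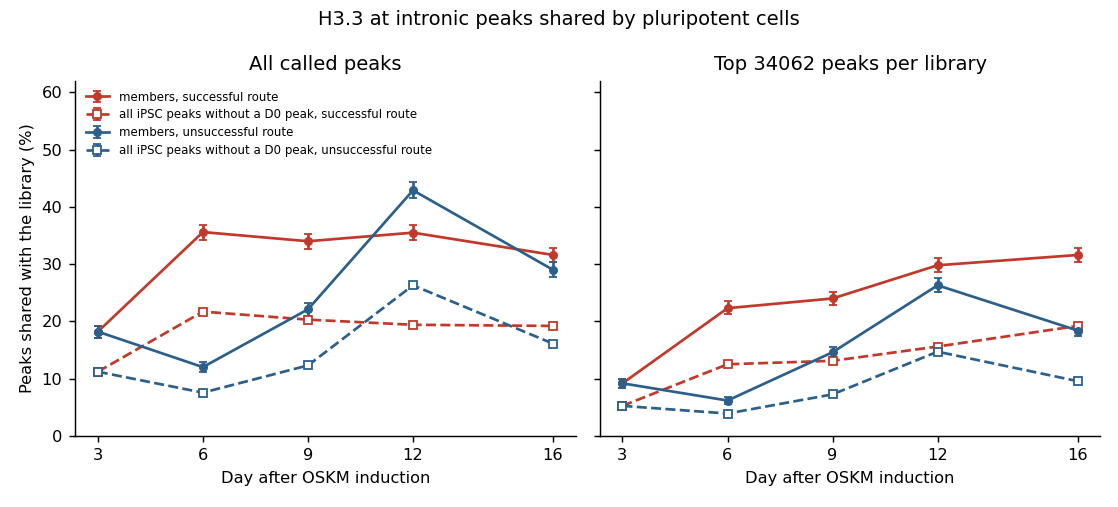
Share of members (filled points) and of all iPSC peaks without a D0 peak (open points) that met an H3.3 peak on each day, in percent with 95% Wilson intervals, for the successful route in red and the unsuccessful route in blue; D3 is shared by both. With all called peaks (left) the unsuccessful fraction was higher on day 12, 42.9 against 35.5%, and with 34062 peaks per library (right) the successful fraction was higher on each of the 4 sorted days.

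Between fractions sorted on the same day, D6T- exceeded D6T+ by 23.7 percentage points and D9T- exceeded D9T+ by 11.9, while D12S+ was 7.43 points below D12S- (a difference of -7.43) and D16S+ was 2.53 above D16S-. The mean was 7.67 points (SD 13.3 over 4 days, higher in the successful fraction on 3 of 4; exact sign-flip permutation test on the days, two-sided, p = 0.375), and 0.13 is the smallest p that 4 days can give. The day 12 difference changed sign with the list: at 34062 peaks per library it was 3.59, and the 4 days gave 16.1, 9.35, 3.59 and 13.2 points (mean 10.6, SD 5.42, 4 of 4 days; exact sign-flip permutation p = 0.13, the smallest possible). Other days also turned: D9T- minus D9T+ was -6.72 at a fold over input of at least 4, and D16S+ minus D16S- was -3.23 with at least 0.5 of the member covered. Shared peaks outside genes gave a mean of 16.0 points with all peaks and 17.1 with equal numbers, and intronic peaks without an ESD3 peak gave 0.314 and 2.21; differences between these means were not tested.

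Taken member by member over the sorted fractions, 2300 members (44.1%) had a peak on both routes, 1019 (19.6%) on the successful route only, 382 (7.33%) on the unsuccessful route only, and 1509 (29.0%) on neither. Among all iPSC peaks without a D0 peak the same classes held 25.9, 18.5, 7.76 and 47.9%. Members were thus more often seen on both routes and less often on neither, while the shares on 1 route only were near those of that set. Outside genes, shared peaks were split otherwise, with 36.1% on the successful route only and 28.4% on both. On the successful route the early libraries met the intronic members more often than the shared peaks outside genes, and the late ones less often: in D3 members exceeded them by 10.4 points [9.24, 11.6], in D6T- by 16.3 [14.7, 17.8], and by D16S+ they were lower by 14.4 (a difference of -14.4 [-16.1, -12.7]). In the unsuccessful fractions members stayed above the peaks outside genes, by 15.8 points [14.1, 17.5] in D12S- and 10.6 [9.10, 12.1] in D16S-.

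The members divided into lasting, interrupted and late gains. A lasting gain, a peak in every library from a day on and in none before, was seen before iPSCs for 1302 members (25% [23.8, 26.2]; background 15.7%) on the successful route. It began with D3 for 4.15% of members, with D6T- for 5.14%, with D9T- for 2.19%, with D12S+ for 5.82% and with D16S+ for 7.70%. In the background set these were 1.38, 2.05, 1.17, 4.08 and 7.02%, so that the D16S+ shares were near each other. A further 40.8% (background 31.0%) had peaks that came and went, and 34.2% (background 53.3%) had a peak in no library before iPSCs. With 34062 peaks per library the members gave 28.4 and 44.3%. Counted by its first peak alone, a member was most often seen from D6T- (21.8%, background 14.5%) or D3 (18.2%, background 11.2%). Of 946 members with a D3 peak, 76.1% had one in D6T-, and the share kept from one library to the next was 70.8% into D9T-, 61.7% into D12S+ and 54.2% into D16S+. The lists shortened from D6T- on, and these kept shares were not computed for the background set.

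On the unsuccessful route, where a lasting gain ends in D16S-, 1067 members (20.5% [19.4, 21.6], background 11.3%) had one. It began most often with D12S- (7.14%, background 3.75%) or D9T+ (4.74%, background 2.44%). Only 35.6% of the D3 peaks were seen in D6T+, the list with fewest members, whereas 86.4% of the D9T+ peaks were seen in D12S-. Here too the kept shares were not computed for the background set. With 34062 peaks per library, an alternative added after the data had been seen, lasting gain was 27.3% on the successful and 13.8% on the unsuccessful route. The order turned where at least 0.5 of the member had to be covered, with 12.1% on the successful and 14.7% on the unsuccessful route. Members with an early lasting gain were long: the median was 2619 bp for D3, 2215 bp for D6T- and 783 bp for those first seen in iPSCs.

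**Figure D2:**
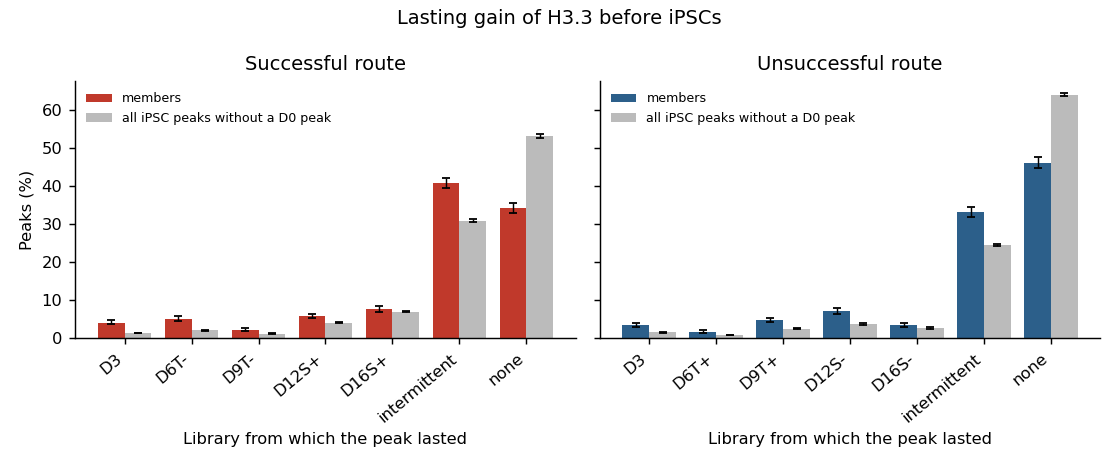
Percent of members (colour) and of all iPSC peaks without a D0 peak (grey) by the library from which an H3.3 peak lasted, with 95% Wilson intervals, on the successful route (left, ending in iPSCs) and the unsuccessful route (right, ending in D16S-). No peak was found at 34.2% of members on the successful route before iPSCs (grey 53.3%) and at 46.2% on the unsuccessful route (grey 64.1%). Interrupted peaks were found at 40.8 and 33.3% of members (grey 31.0 and 24.6%).

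The members were little seen in the transdifferentiation libraries apart from D4. The MEF library, a further fibroblast library before conversion that the selection did not use, had a peak at 7.14% of members (background 5.68%). D4 had one at 37.0% (28.9%), and cKit+ and cKit- at 3.97% (2.82%) and 4.05% (2.90%). The D4 list was the longest, with 108179 peaks over 267 Mb. At 34062 peaks its share was 18.1% (background 15.4%), against 3.88% in MEF (background 3.40%). Intronic peaks without an ESD3 peak were met in cKit+ about as often as members, with a difference of -0.191 points [-0.787, 0.451].

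The H3K36me3 peaks called in iPSCs lay under few of the members, although most members were inside genes that carried one, as for other intronic peaks. In iPSCs 569 members (10.9% [10.1, 11.8]; background 10.0% of all iPSC H3.3 peaks) shared bases with an H3K36me3 peak, and 6.20% [6.00, 6.41] of the iPSC peaks without a D0 H3.3 peak did. Yet 66.0% of members lay in a host gene with an iPSC H3K36me3 peak somewhere in its body, and of those members 16.5% shared bases with it. The values were near these for intronic peaks with neither D0 nor ESD3 H3.3, of which 69.9% lay in such a host and 13.9% of those on the mark. Intronic peaks kept from D0 gave 25.9%, a difference of -15.0 points [-16.4, -13.5] for the members, 84.4% in a host with the mark and 30.6% of those on it. Shared peaks outside genes gave 3.65%. The iPSC H3K36me3 list covered 19.6 Mb with 2.88% of tags in peaks, against 154 Mb and 31.34% in D0. The part of this in the iPSC shares was not tested.

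Against intronic peaks with neither D0 nor ESD3 H3.3 (9.70%) the members were 1.22 points [0.272, 2.21] higher, but not within a class of length. At 500 bp both were alike, 7.43 and 7.58%, and in the longer classes the members were lower: 6.64 against 9.31% up to 1000 bp, 10.2 against 14.3% up to 2000 bp, and 18.6 against 22.2% above 2000 bp. Members that reached an exon carried the mark more often, 22.2% [19.7, 24.8] against 8.16% [7.36, 9.02] of those that reached none; exon-reaching members were also longer, with medians of 1800 and 1030 bp.

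In earlier libraries the D0 list of H3K36me3 met 24.5% of the members (background 23.1%), D3 met 16.2% (16.3%), D6T- met 11.1% (11.7%), D9T- met 29.6% (24.9%), D12S+ met 3.38% (3.19%) and D16S+ met 4.78% (4.39%). Of the iPSC peaks without a D0 H3.3 peak, 16.0% were met in D0, 18.8% in D9T- and 1.84% in D12S+, each below the members. These shares went with the length of genome under H3K36me3 peaks, which was 154 Mb in D0, 168 Mb in D9T-, 7.43 Mb in D12S+ and 19.6 Mb in iPSCs, and their part in the course was not tested. Between D0 and iPSCs, 352 members (6.76%) had the mark in both, 923 (17.7%) in D0 only, 217 (4.17%) in iPSCs only and 3718 (71.4%) in neither. Since no member had H3.3 in D0, the D0-only class held introns with H3K36me3 but without an H3.3 peak in fibroblasts.

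H3K4me3 was met more often than H3K36me3 in iPSCs, at 1411 members (27.1% [25.9, 28.3]; background 29.0%), against 13.8% of intronic peaks without ESD3 H3.3 and 42.5% of those kept from D0. The D0 list met 10.6% of members (background 25.4%), D3 met 10.3% (22.2%), D6T- met 19.4% (27.1%), D9T- met 18.1% (24.7%), D12S+ met 18.8% (22.6%) and D16S+ met 10.1% (13.6%). Against iPSC peaks without a D0 H3.3 peak, the set nearer to the rule, members were below in D0 (14.0% of that set) and D3 (13.0%), and above in D6T- (17.3%), D9T- (15.8%), D12S+ (14.8%), D16S+ (8.57%) and iPSCs (21.9%). Of the members 1010 (19.4%) had H3K4me3 in iPSCs but not in D0, and 151 (2.90%) had it in D0 only. Both marks were met at 178 members (3.42%) and neither at 3408 (65.4%).

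Within classes of length, members and intronic peaks without ESD3 H3.3 had nearer shares of iPSC H3K4me3: 10.7 and 7.97% at 500 bp, 15.2 and 13.9% up to 1000 bp, 27.9 and 25% up to 2000 bp, and 50.2 and 44.0% above 2000 bp. The 76 members that reached across a start site met the mark in 80.3% of cases, and without them the share was 26.3%. Members with a lasting gain from D3, D6T- or D9T- met iPSC H3K4me3 in 51.4, 49.3 and 51.8% of cases, those from D12S+ and D16S+ in 33.3 and 28.4%, and those first seen in iPSCs in 19.3%. Their median lengths were 2619, 2215, 2268, 2160, 1500 and 783 bp in this order, and the part of length was not tested.

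**Figure D3:**
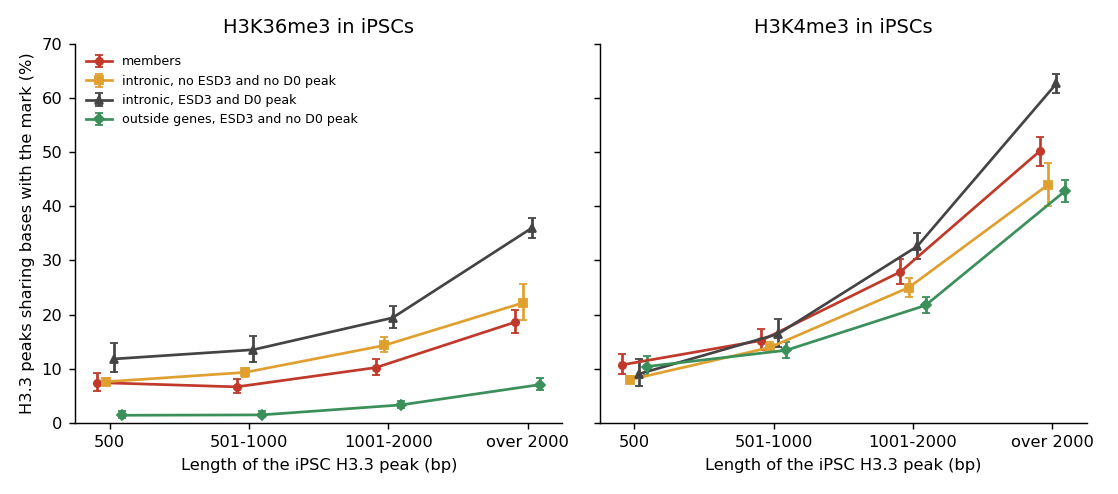
Share of iPSC H3.3 peaks that met H3K36me3 (left) or H3K4me3 (right) in iPSCs, in percent with 95% Wilson intervals, by length of the H3.3 peak in bp, for members and 3 compared sets. Both marks were met more often at longer peaks; for H3K36me3 the members lay below the other intronic sets in each class above 500 bp, 18.6 against 22.2 and 36% above 2000 bp.

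The members lay in 3094 host genes, 16.2% of the 19074 protein-coding genes over 2 kb. Of the hosts 65.4% held 1 member, 135 held 5 or more and 16 held 10 or more, and 96 members lay inside more than 1 gene. Hosting went with gene length, from 4.99% of genes of 2 to 20 kb to 44.8% of those above 200 kb, and the median host was 59.6 kb long against 15.4 kb for all protein-coding genes. Along the gene, from start to end in 4 equal parts, 29.6, 26.2, 24.6 and 19.5% of members were found, and H3K4me3 was met most often in the part nearest the start, 37.4% against 22.1 to 23.2% in the others.

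Most hosts had H3K4me3 at their promoter both before and after reprogramming. H3K4me3 lay within 1 kb of the gene start in 84.6% of hosts in iPSCs (69.5% of all genes over 2 kb) and in 84.6% in D0 (71.6%). The gene start was 1 position per gene model, and starts of other transcripts were not checked. Genes with other intronic iPSC peaks only had it in 86.0 and 87.2% of cases, so that the hosts were not above other genes with intronic H3.3. Of the hosts 81.5% had it in both (67.2% of all genes), 3.14% in iPSCs only and 3.07% in D0 only. H3K36me3 was found in 60.5% [58.8, 62.2] of host genes in iPSCs, where 38.9% of all genes over 2 kb had it, and in 71.6% in D0. By gene length the hosts' share in iPSCs was 47.3% at 2 to 20 kb, 64.8% at 20 to 50 kb, 69.0% at 50 to 100 kb, 65.1% at 100 to 200 kb and 45.2% above, against 29.8, 49.8, 51.5, 45.6 and 30.1% of all genes.

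Genes with other intronic iPSC peaks only gave 56.0, 69.9, 63.6, 49.6 and 27.4% in the same order. The hosts of members were below these genes up to 50 kb and above them beyond 50 kb. Between D0 and iPSCs 1669 hosts (53.9%) kept H3K36me3, 546 (17.6%) had it in D0 only and 204 (6.59%) in iPSCs only. Among all genes over 2 kb these were 35.4, 20.1 and 3.46%. H3K36me3 peaks covered 154 Mb of the genome in D0 and 19.6 Mb in iPSCs, and the part of this in these counts was not tested.

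By number of members the leading hosts were Gm20388 with 42 (a gene model spanning 4430 kb in which 18 of them also lie in another gene), Etl4 with 28, Rnf220, a ubiquitin ligase, with 19, Msi2, an RNA-binding Musashi protein, with 18, Tns3, a tensin of focal adhesions, with 16, Plekha7, of adherens junctions, with 15, Pitpnc1, a phosphatidylinositol transfer protein, with 15, and Esrrb with 14. Msi2 (chr11:88152884-88579827) was met on both routes: of its 18 members 2, 11, 12, 12 and 6 had H3.3 along the successful route from D3 to D16S+ (2, 5, 9, 11 and 6 with 34062 peaks per library), and the unsuccessful fractions had 1, 4, 15 and 10 on days 6, 9, 12 and 16. Etl4 (chr2:19831407-20732340) had 6 in D3 and 20 of 28 in D16S+, against 1 in D6T+ and 14 in D16S-. In both genes many members carried H3.3 on either route.

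Esrrb (chr12:87702067-87862578, + strand, 161 kb) was reached late. Of its 14 members none had a peak in D3, D6T- or D9T-, 2 had one in D12S+ and 9 in D16S+, and none had one in any of the 4 unsuccessful fractions. MEF and D4 had 1 each, in different members, and cKit+ and cKit- had none. The longest member, chr12:87842882-87853565, scored 11 per kb in iPSCs and 15.0 in ESD3, with 12.7 in D12S+, 15.6 in D16S+ and 10.7 in MEF. The member that holds the printed octamer, chr12:87818166-87821624, scored 12.4 in iPSCs, 14.6 in ESD3 and 14.4 in D16S+. Of the 14 members 8 met H3K4me3 in iPSCs and 1 met H3K36me3. H3K36me3 covered 0.312% of the gene in iPSCs and none of it in the earlier libraries. No H3K4me3 peak lay within 1 kb of the start of the gene model in D0 or iPSCs. Starts of other transcripts were not checked. The longest member, which met H3K4me3 in iPSCs, spans the start of an annotated transcript, 2864 bp from its midpoint.

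Sall4 (chr2:168573832-168593443, - strand) showed a different order within 1 gene. Its member chr2:168586198-168590274 had H3.3 from D3 on, at 12.0, 15.9, 20, 13.5 and 16.8 per kb in the 5 libraries up to D16S+, 13.8 in iPSCs and 14.8 in ESD3, and also in D9T+, D12S- and D16S- but not in D6T+. The member with the printed octamer, chr2:168580462-168585335, was seen in D9T- (12.8 per kb), D16S+ (12.0), D12S- (16.5) and D16S- (13.7), and the third member, chr2:168578459-168579239, in iPSCs and ESD3 only. The octamer member spans the start of an annotated transcript, 1455 bp from its midpoint. All 3 members met H3K4me3 in iPSCs. H3K36me3 covered 0% of Sall4 in D0 and 21.6% in iPSCs.

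Tet1 (chr10:62267318-62361866, - strand) held 4 members. The one of 10744 bp at chr10:62354039-62364783, which spans the annotated start of the gene, had H3.3 from D3 on, at 13.5, 13.4, 17.5, 15.5 and 18.7 per kb along the successful route, and was absent from D6T+ only among the unsuccessful fractions. The member at chr10:62347721-62348674 was seen from D6T- on and in D12S- only among the unsuccessful fractions, the member of 752 bp at chr10:62311675-62312427 in D12S- alone, and the printed one in D12S+ and D6T+. An H3K4me3 peak lay within 1 kb of the start of the Tet1 gene model in iPSCs but not in D0. Mybl2, a cell-cycle factor, held 1 long member (chr2:162900454-162913382, 12928 bp) that runs past the end of the gene, with scores of 12.8, 11.8, 11.8, 13.6 and 16.8 per kb from D3 to D16S+. D12S- and D16S- had 14.1 and 14.2, and D6T+ and D9T+ had no peak. H3K36me3 covered 0% of Mybl2 in D0, 78.2% in D9T- and 21.6% in iPSCs, with none in D12S+ and D16S+, the libraries with the shortest H3K36me3 lists.

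Etv5, an ETS factor, had 6 members in 58.4 kb (chr16:22381382-22439792), of which 4 had H3.3 in D6T-, 5 in D12S+, 4 in D16S+, 5 in D12S- and 4 in D16S-. Its member chr16:22428345-22430766 had H3.3 in each of the 9 libraries between D0 and iPSCs, from 14.3 per kb in D6T+ to 19.7 in D9T-, and also in MEF (11.4) and D4 (13.6). Jarid2 (chr13:44824843-45017012) had 14 members, of which 2, 6, 8, 5 and 5 had H3.3 from D3 to D16S+, against 3, 3, 9 and 8 in the unsuccessful fractions. The pluripotency hosts therefore ranged from Esrrb, with no member seen in an unsuccessful fraction, to Etv5 and Jarid2, seen on both.

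**Figure D4:**
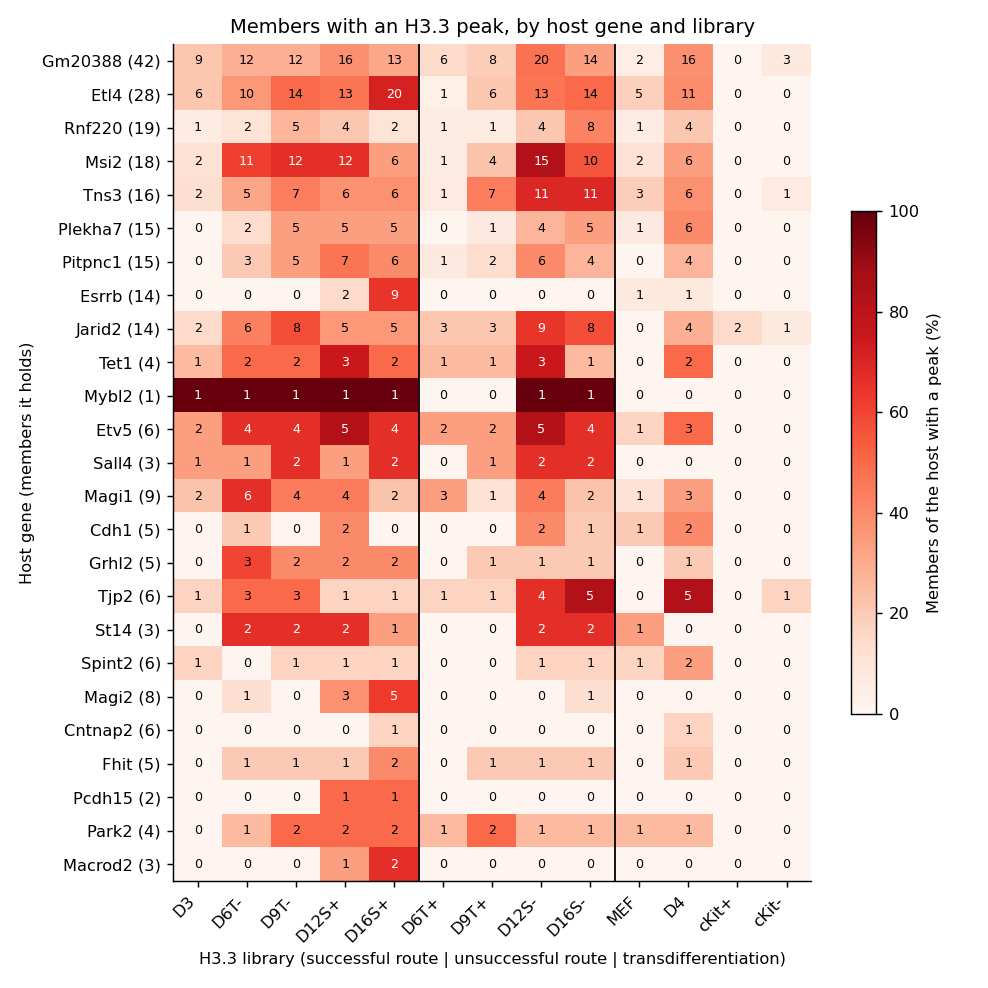
Number of members with an H3.3 peak in each library, by host gene; the number held by each gene is in parentheses and the colour gives the percent of them. Of the 14 Esrrb members 2 had a peak in D12S+ and 9 in D16S+, with none in the 4 unsuccessful fractions, while Msi2 and Etl4 had peaks on both routes.

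Of 8 gene lists, chromatin regulators hosted members most often, 27 of 48 genes (56.2% [42.3, 69.3]), beside 16.2% of all genes over 2 kb. The median gene of the list was 62 kb long, and 30.7% of all genes of 50 to 100 kb were hosts. Of these 27 hosts 25 carried H3K36me3 in iPSCs. Smarcad1, a chromatin remodeler, held 7 members, of which 5 had H3.3 in D6T- and none in D6T+. Kdm2b, a demethylase of Polycomb sites, held 5, all with H3.3 in D12S+, and 2 of them in D12S-. Cbx7, a Polycomb chromodomain protein, held 5 and Suz12, a core subunit of Polycomb repressive complex 2, held 2. In Suz12 H3K36me3 covered 83.5% of the gene in D0, 90.6% in D9T- and 22.0% in iPSCs, and in Smarcad1 82.6, 75 and 5.85%. Over the genome H3K36me3 peaks covered 154, 168 and 19.6 Mb in these libraries, and the part of this in the gene values was not tested.

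Of 47 pluripotency genes 45 carried H3.3 in iPSCs, 38 in ESD3 and 21 in D0. These are the libraries of the rule, so the share of hosts in this list is not independent of the selection. Pluripotency genes hosted members in 20 of 47 cases (42.6% [29.5, 56.7], 65 members) with a median gene length of 11.7 kb, beside 4.99% of all genes of 2 to 20 kb, and 12 of the 20 carried iPSC H3K36me3. Genes of LIF, Fgf, Wnt and Nodal signalling did so in 11 of 34 cases (32.4%) at a median of 58.8 kb, near the 30.7% of all genes of 50 to 100 kb, among them Tcf7l1, a repressor at Wnt targets, with 9 members, Gsk3b, the kinase that destabilises beta-catenin, with 5, and Bmpr1a, a Bmp receptor, with 2. Both Bmpr1a members had H3.3 in D3, D6T-, D9T-, D6T+, D9T+, D12S- and D16S-, 1 in D12S+ and neither in D16S+. Tcf7l1 had 5 of its 9 in MEF, more than in any library of the successful route. Fgfr2 held 12, of which 10 also lay in another gene, since its annotated model spans 3010 kb.

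Epithelial genes, of the state that fibroblasts enter in the mesenchymal-to-epithelial transition, hosted members in 18 of 40 cases (45% [30.7, 60.2]). Their median length was 26.3 kb, where 18.3% of all genes of 20 to 50 kb were hosts. Of the 40 epithelial genes 38 carried H3.3 in iPSCs, 36 in ESD3 and 28 in D0. The epithelial share is therefore not independent of the selection either. Fibroblast and mesenchymal genes, at a median of 36.7 kb, hosted members in 1 of 46 cases (2.17% [0.385, 11.3]). The host was Zeb2, a driver of the reverse transition, with 1 member of 500 bp. All 46 carried H3.3 in D0, and the rule leaves out iPSC peaks that meet a D0 peak, so this share is not independent of the selection. Cdh1, which encodes E-cadherin (chr8:109127251-109194146), held 5: none had H3.3 in D3, D9T- or D16S+, 1 had it in D6T- and 2 in D12S+, with 2 in D12S- and 1 in D16S-. Grhl2, an epithelial transcription factor, had 3 of 5 in D6T- and none in D6T+. H3K36me3 covered none of Cdh1 in D0 and 10.9% in iPSCs, and 3 of its members met it, whereas none met H3K4me3. All 46 fibroblast genes and all 35 housekeeping genes carried H3.3 somewhere in the gene in D0, as did 47 of the 48 chromatin regulators. Of the housekeeping genes 1 (Tfrc) was a host, under the same limit of the selection.

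Long genes of neural adhesion and synapse, a lineage not made here, hosted members in 20 of 44 cases (45.5% [31.7, 59.9]), at a median gene length of 1050 kb, beside 44.8% of all genes above 200 kb. Of these 20 hosts 3 carried iPSC H3K36me3, against 25 of the 27 chromatin hosts. Fhit, Park2 and Macrod2 in this list are very long genes that encode enzymes and no synaptic proteins. Magi2 had 3 of 8 members in D12S+ and 5 in D16S+, against none in D12S- and 1 in D16S-. Cntnap2, a neurexin-like adhesion protein, had 1 of 6 in D16S+ and none in the other reprogramming fractions. Its member chr6:47243224-47245319 scored 14.0 per kb in iPSCs, 21.2 in ESD3 and 15.5 in D16S+.

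The members of highest score per kb in a class were partly regions of high input. Tex2 (21.4 per kb) and Rapgef6 (19.9), the leading members with lasting gain from D3, had input tags near the median of iPSC peaks, at 1.07 and 0.926 times. Gm10634 (24.2) and Prkdc (23.6), from D6T-, had 1.16 and 1.29 times. Sprr2a2 (79.0) and Tulp4 (38.9), from D9T-, had 6.60 and 3.79 times, Zfp600 (81.6) from D16S+ had 9.87 times, and Kctd16 (274) and Sfi1 (212), seen in no library of the successful route before iPSCs, had 30 and 28.1 times the median. Across all members 1.29% had input above 2 times the median.

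In sequence the members differed from the other intronic sets in separate motifs. In the central 500 bp, on both strands, 11.8% held an octamer (10.9% of all iPSC peaks), 1.63% a Sox-Oct core (1.38%), 11.6% the Esrrb motif AAGGTCA (9.72%), 20.2% the Klf motif (17.7%) and 13.5% the AP-1 motif (14.7%). The Sox-Oct core ends in ATGC and can share these letters with an octamer, and AP-1 reads alike on both strands. Against intronic peaks without ESD3 H3.3, the Klf motif was more common by 4.43 points [3.21, 5.67] and the Esrrb motif by 1.89 [0.919, 2.89], with GC medians of 47.2 and 45.8%. Against intronic peaks kept from D0, at the same GC median of 47.2%, AP-1, the element of Fos and Jun, was less common (a difference of -4.31 [-5.69, -2.93]) and the octamer more common by 2.04 [0.859, 3.23]. Over whole peaks, which are longer in the kept set, the octamer difference turned to -7.52 [-9.29, -5.74], and in the central 200 bp the Esrrb difference to the former set was 0.252 [-0.358, 0.910].

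Against shared peaks outside genes, AP-1 (-3.33 [-4.56, -2.08]) and the octamer (-1.80 [-2.95, -0.636]) were less common and Klf more common (1.89 [0.510, 3.28]), at 1.39 against 1.72 CpG per 100 bp. In the 14 Esrrb members 5 held the Klf motif, 3 the Esrrb motif and 1 the octamer, and in the 14 Jarid2 members 4 held the octamer and 3 AP-1. A match is a description of letters and not of binding.

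**Figure D5:**
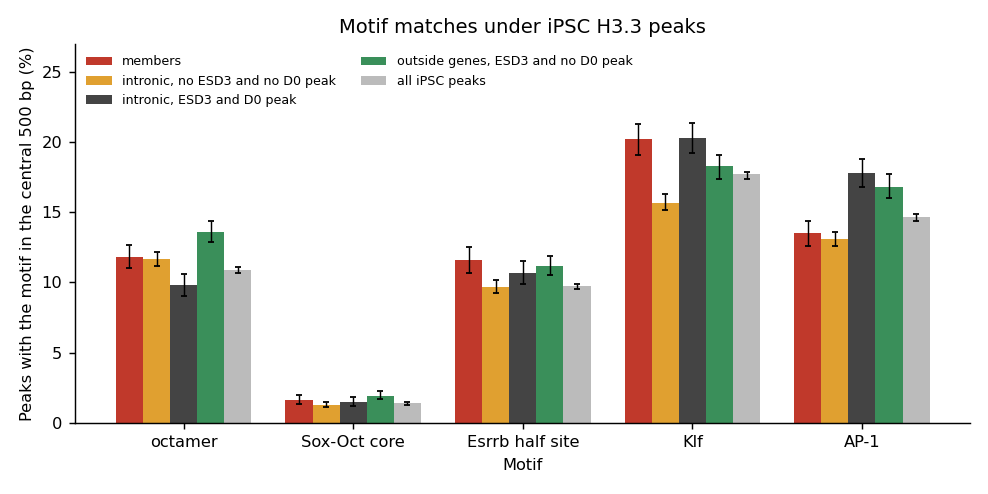
Percent of peaks with a motif match in the central 500 bp, with 95% Wilson intervals, for members, 3 compared sets and all iPSC peaks. Members held Klf in 20.2% of cases against 15.7% of intronic peaks without ESD3 H3.3, and AP-1 in 13.5% against 17.8% of intronic peaks kept from D0.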

How the data were processed

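ChIP-Seq of H3.3 and of 2 histone marks, H3K4me3 and H3K36me3, was analysed from 30 peak lists of 46 samples; the other 16 samples were inputs, which enter through the input tags that each peak carries. Per the study's methods the authors mapped reads to mm9 with STAR, removed reads at more than 1 locus, and called peaks with HOMER findPeaks in histone style; versions are not given in the sources used here. Per the file headers, peaks were called for each library separately against an input, with a peak size of 500 bp, merging within 1000 bp, a fold over input of at least 2 for H3.3 and 4 for the other marks, and a Poisson p-value limit of 1e-04. The deposited score is a signal, the tag count scaled to 10 M tags and not divided by peak length; the deposited fold is a linear ratio of tags to input tags, and the deposited p-value is the authors' Poisson value. Called peaks depend on depth (13.2 to 91.8 M tags) and on enrichment (1.07 to 42.38% of tags in peaks), and peaks at repeats depend on the removal of reads with several loci.

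Midpoints were placed with GENCODE vM1 of the same build. Peaks shared bases at 1 bp or more; score per kb is the summed score over the summed length of the peaks met. Shares carry Wilson intervals and differences Newcombe intervals at 95%, from counts of peaks, which are not independent; with 1 library per group no test across peaks was made, and the route difference was tested over 4 days by an exact sign-flip permutation test. Overlap, gain classes, Wilson intervals and the sign-flip count were tested on simulated data, and the placement of midpoints was not. Sequences came from the genome of build mm9, which has no lower-case repeat masking, so no repeat share is given. Python 3.11.15 with numpy 2.4.6, pandas 2.3.3, scipy 1.17.1 and matplotlib 3.10.9 was used.

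The members, the 8 gene lists (323 symbols written) and the tests were chosen with earlier results of these data known. Hosts were named by rule: the 8 with most members, up to 6 per list by summed iPSC score of their members, and for each class of lasting gain the 2 members with the highest score per kb; sequences were taken from members of pluripotency hosts, off chromosome 18, highest score first and those with an octamer or Sox-Oct core before others. Alternatives changed the rule for members (equal peak numbers, fold of at least 4, 0.5 of the peak covered, no MEF peak, autosomes, over 10 kb from a start, input at most 2 times the median, protein-coding starts), the followed lists, peak length, motif window and hosts of members inside more than 1 gene.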

Additional observations from a re-analysis of the deposited data

How the results depend on the processing

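With 1 library per group, a peak list stands or falls with its depth and enrichment, and the shares moved with the lists. Of the results that answer a comparison, 51 values under an alternative counted as the same, 43 moved and 3 changed direction. Of the single values, 81, 67 and 5 did so. A share counted as the same within its counting interval, and a count within 1.5 times. A difference counted as the same if it kept its sign, whatever its size. The mean route difference was above 0 in every setting run, from 3.61 to 15.1 points, with exact sign-flip permutation p from 0.13 to 0.75, and 0.13 is the smallest possible with 4 days. No paired analysis was possible, beyond the within-day differences just named, because each group had 1 library and thus no replicate numbers to share.

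When each list was cut to the same number of peaks by score, the rule left 3419 members, the mean share over followed libraries was 32.7% (29.0% as reported), lasting gain 43.1% and 22.4% on the successful and unsuccessful route (25 and 20.5%), H3K36me3 15.9%, H3K4me3 42.1% and hosts with H3K36me3 64.0%; the gap in H3K36me3 to intronic peaks without ESD3 H3.3 became -1.33 (1.22 as reported) and D12S+ minus D12S- became 8.42. With a fold of at least 4 there were 804 members in 719 hosts, a mean share of 16.8%, lasting gain of 22.6 and 10.4%, H3K36me3 at 14.7% and H3K4me3 at 25.1%; D9T- minus D9T+ became -6.72 and D12S+ minus D12S- 4.98. With at least 0.5 of the peak covered the mean share was 19.5%, lasting gain 12.1 and 14.7%, with the order of the routes turned, H3K36me3 3.43%, its gap -1.74, H3K4me3 13.0%, hosts with H3K36me3 62.7% and D16S+ minus D16S- -3.23. Without members that met a MEF peak the mean share was 27.7% and H3K4me3 25.7%. Over 10 kb from any start there were 2646 members in 1591 hosts, a mean share of 26.7%, lasting gain of 27.1 and 19.1%, H3K36me3 at 9.33% and H3K4me3 at 21.4%. With only the followed lists cut to equal numbers the mean share was 20.3%, D12S+ minus D12S- 3.59, and lasting gain, added after seeing the data, 27.3 and 13.8%. At 500 bp only, H3K36me3 was 7.43% and its gap -0.148. In the central 200 bp and in the whole peak, AP-1 was found in 5.39 and 32.8%, the Esrrb motif in 4.30 and 28.5%, Klf in 8.69 and 40.8%, the Sox-Oct core in 0.710 and 4.38% and the octamer in 4.86 and 28.8% of members. The cause of these moves was not tested.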

Other observations

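Few members lay on the X chromosome: 14 of 5210 (0.269% [0.160, 0.451]), where 0.961% [0.897, 1.03] of all iPSC H3.3 peaks, 0.508% of intronic peaks with neither D0 nor ESD3 H3.3 and 1.80% of shared peaks outside genes did. Of 25 hematopoietic and endothelial genes 5 were hosts. Pecam1, a surface adhesion protein of endothelium also found on mouse embryonic stem cells, held 8 members, of which 2 had H3.3 in D3, 5 in D6T-, 6 in D12S- and 7 in D16S-, 2 in D4, 1 in cKit+ and none in cKit-. Kit, the receptor by which the transdifferentiated cells were sorted, held 3 members, and none of them had a peak in any of the 13 followed libraries, cKit+ included; they scored 11.2 to 12.6 per kb in iPSCs and 14.4 to 19.3 in ESD3.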
